A study of Mus musculus with 764 samples.

Results

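The ribosomal protein genes were 87 of the 23997 gene rows in the count tables. They were taken by name, as every row called Rpl or Rps followed by a digit, together with Rplp0, Rplp1, Rplp2 and Rpsa. Rows of Rps6k kinases and rows marked as pseudogenes were left out. Of the 87 rows, 52 were named for the large subunit and 35 for the small subunit. The name rule also took rows that are set apart here from the core ribosomal proteins. They were Rps19bp1, a protein that binds Rps19, a retrogene (Rps27rt) and 8 "like" genes such as Rps27l and Rpl7l1. The other 77 rows are called known ribosomal proteins here, a split by name that does not tell whether a like gene enters ribosomes.

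The values were read counts of single IL-10+ CD4+ T cells from the small intestine and the spleen of mice treated with anti-CD3, an antibody that expands T cells producing the anti-inflammatory cytokine IL-10. According to the methods, such cells came from double reporter mice, in which eGFP marks the activity of the Il10 gene and mRFP that of Foxp3. All cells shared the reporter gate and the anti-CD3 treatment, and no untreated cells were part of the data. The labels named a plate and a well for every cell and no animal. Each tissue was therefore 1 sample, and no difference between tissues has a replicate check.

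Ribosomal proteins are the protein part of the ribosome, the machine that translates mRNA. The small subunit holds the mRNA and reads its codons, and the large subunit joins amino acids and lets the new protein out through a tunnel. Their mRNAs typically begin with a C followed by an unbroken run of pyrimidines, the terminal oligopyrimidine or TOP sequence, through which growth signals set their translation. In T cells, activation and growth raise the making of ribosomes, and resting, naive-like cells are known for a high proportion of ribosomal protein mRNA.

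After filtering, 72.1% of the 190 small intestine cells were kept, and 400 spleen cells. The spleen cells came as 3 sets, from columns 1 to 12 of plate p1 (the first p1 set, 69.3% kept), from columns 13 to 24 of p1 (the second p1 set, 76.3% kept) and from columns 1 to 12 of plate p2 (63.5% kept). All small intestine wells were in the other columns of p2, so tissue and place on that plate cannot be told apart. The kept cells had between 162801 and 622997 reads on genes, with medians of 324546 in the small intestine and between 315920 and 366140 in the spleen sets. The 4 T cell markers fixed for the check summed to a mean of 5694 counts per 1e+06 reads (CPM) in the small intestine and of 6138 to 6847 CPM in the spleen sets. Cd4 had means of 1557 CPM in spleen and 1500 CPM in small intestine cells. Markers of CD8 T cells had a read in 30.7% of small intestine and 13.1% to 17.3% of spleen cells, those of B cells in 12.4% and 4.83% to 6.77%, of myeloid cells in 2.19% and 5.52% to 9.84%, and of epithelial cells in 24.1% and 11.5% to 18.8%.

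The ribosomal protein rows differed widely in how many reads they held. At least 1 read was counted for 86 of the 87 rows over the kept cells, all but Rps27rt, and 58 had a mean of at least 10 CPM. Those 58, 32 of the large and 26 of the small subunit, are the rows whose levels were compared. The highest mean CPM was that of Rpl4, which lines the exit tunnel, with 2770 CPM, followed by Rps3, which sits where the mRNA enters, with 2472 CPM. The 10 highest rows together held 69.1% of all ribosomal protein reads. Per kb of transcript the mean was 1801 CPM for Rpl4 and 1296 CPM for Rps3. Rpl17, at 13.3 CPM per kb, was the lowest of the 58.

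Core members of the same ribosome were among the rows at the bottom of this range. Rpl30 had a mean of 0.116 CPM over the kept cells, Rpl23a 0.938 CPM and Rps27, which binds zinc in the small subunit, 6.23 CPM. Ribosomal protein mRNAs have many processed copies in the genome, and the transcripts were therefore searched for 50-base words found in no other gene of the GENCODE M21 annotation. At least 1 word was shared with an annotated pseudogene for 82 of the 86 rows with a transcript, with a median of 8 pseudogenes for each row. The median share of words found in no other gene was 58.3% for the 58 rows with at least 10 CPM and 24.4% for the 28 others with a transcript. Across the 86 rows, the level per kb and the share of unique words had a Spearman correlation of 0.37, a description over genes that share libraries. Exceptions ran both ways. Rps18 reached 230.2 CPM per kb with 13.3% unique words, and Rpl28 had 1.11 CPM per kb with 52.6%. Rpl3l and Rpl10l, with nothing but unique words in the first and 92.4% in the second, were detected in 1 and 2 kept cells, all of the spleen. The methods describe RPKM values made from reads with a single alignment and corrected for mappability, and whether the deposited counts were made from the same reads was not given in the sources used here, so levels are uncertain for every row that shares sequence, and differences between cells rest on the reads that were counted.

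**Figure D1:**
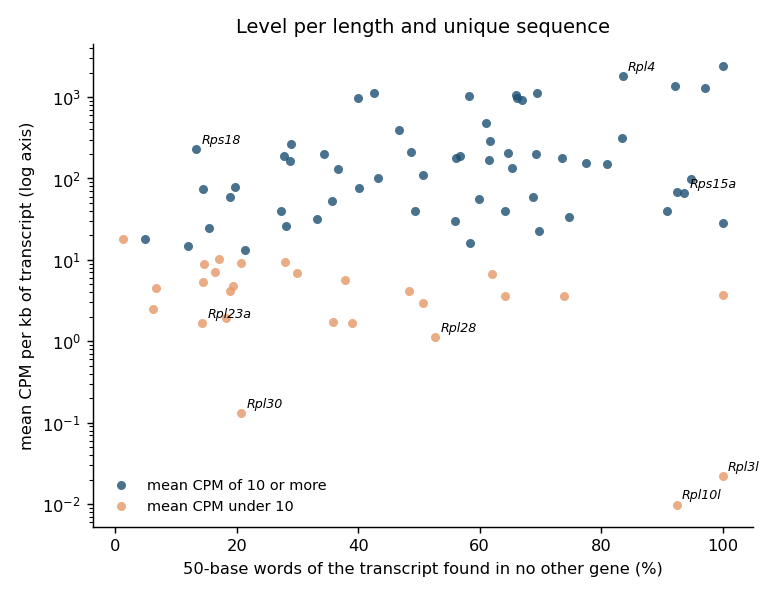
Mean CPM per kb of transcript over the kept cells (log axis) against the percent of 50-base words of that transcript found in no other annotated gene, with 1 point for each ribosomal protein row that had a transcript and a read. Rows with a mean under 10 CPM lie mostly at the left, with medians of 24.4% unique words against 58.3% for the others, and Rpl3l and Rpl10l stand apart at the lower right.

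Ribosomal protein reads took the smallest share in the small intestine and the largest in the p2 spleen cells. In small intestine cells the share was between 0.407% and 2.74% of the gene reads, with a median of 1.37% and quartiles of 1.09% and 1.56%. It was between 0.606% and 3.94% in the first p1 set (median 1.88%), between 0.773% and 4.75% in the second p1 set (median 1.80%), and between 0.922% and 5.57% in p2 (median 2.58%). The sets overlapped, but 99.3% of small intestine cells lay below the p2 median, all but 1, and 14 and 17 of them lay above the medians of the first and the second p1 set. When every small intestine cell was paired with every spleen cell of a set, the spleen cell had the larger share in 80.6%, 77.6% and 88.3% of the pairs for the first p1 set, the second p1 set and p2. The p2 median was 1.89 times the small intestine median and the p1 medians were 1.38 and 1.32 times it. Pooled over cells, the shares were 1.37% in the small intestine (95% Poisson interval 1.36% to 1.37%) and 1.94%, 1.92% and 2.54% in the spleen sets. The intervals treat every read as independent, although PCR copies of 1 molecule are counted as separate reads. They are therefore too narrow even for counting error, and they leave out the spread between cells.

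**Figure D2:**
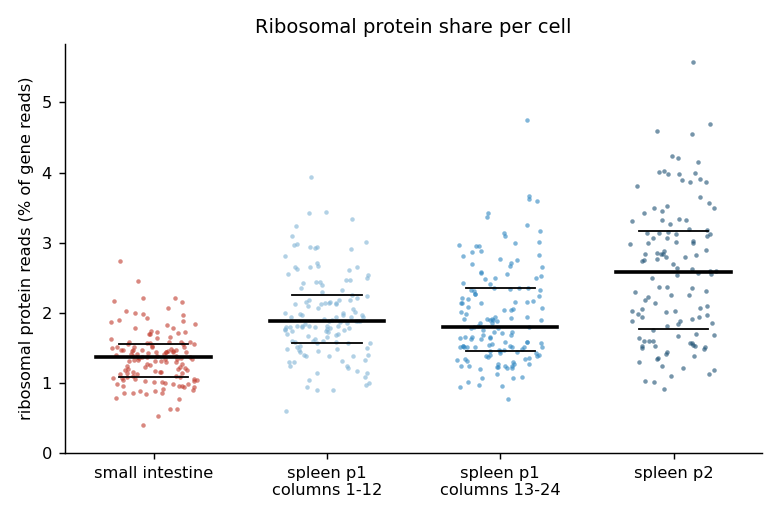
Share of gene reads on the 87 ribosomal protein rows in each kept cell, by set, with the median as a thick line and the quartiles as thin lines. The small intestine cells reach up to 2.74% around a median of 1.37%, while the p2 spleen cells spread from 0.922% to 5.57% around 2.58%.

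The spread among cells was also the widest in p2 spleen, with a standard deviation of 37.2% of the mean, against 30.4% and 34.8% in the p1 sets and 28.1% in the small intestine. The 2 subunits moved together across cells. The share of large subunit rows and that of small subunit rows had Spearman correlations of 0.84, 0.88, 0.91 and 0.78 over the cells of the first and the second p1 set, p2 and the small intestine. The ratio of large to small subunit reads had medians between 1.13 and 1.18 in the spleen sets and of 1.14 in the small intestine, a difference well inside the quartiles of each set (1.01 to 1.27 in the small intestine).

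The gap between tissues was seen in cells called G1 and was small in cells called G2M, which were otherwise left out. The 30 small intestine cells called G2M had a median share of 1.36%, about that of the G1 cells of the same tissue. The G2M cells of the spleen had medians of 1.35% (40 cells of the first p1 set), 1.52% (31 cells of the second p1 set) and 1.39% (46 cells of p2). In p2 spleen the share of G2M cells thus lay at 1.39% against 2.58% for G1 cells. Cells called S had medians between 1.59% and 1.82% in the spleen sets, from 7 to 11 cells each, and of 1.52% in 4 small intestine cells. G2M cells had more genes with a read than G1 cells at similar read totals, with medians of 4132 to 4511 against 3105 to 3331 genes.

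By gene, most members were lower in the small intestine. Of the 58 members compared, 54 had a lower mean CPM in small intestine cells than in any of the 3 spleen sets and 0 had a higher one than in all 3, against 45.5% and 23.5% of the 8384 genes with a mean of at least 10 CPM. At least 1.5-fold lower than the pooled spleen were 32 of the 58, against 31.3% of all genes, and 0 were at least 1.5-fold higher, against 12.8%. The log2 ratio of small intestine over spleen mean CPM (each with 1 CPM added) had a median of -0.66 over the 58 members, with quartiles of -0.74 and -0.45. The median over all 8384 genes was itself -0.23, and 54 of the 58 members lay below it. Under TMM or median-of-ratios scaling the median gene moved to -0.03 and 0.00, the members' median to -0.46 and -0.43, and the members at least 1.5-fold lower fell to 11 and 10. These were 18.97% and 17.2% of the members, under the 22.9% and 22.2% of all genes in the same settings. Below all 3 sets were 47 and 45 members, against 35.3% and 34.2% of all genes.

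The size of the difference depended on the spleen set. Against p2 alone 48 of the 58 members were at least 1.5-fold lower in the small intestine and 0 higher, where 32.9% and 15.4% of all genes were, and all 58 had a negative log2 ratio (median -0.85, median gene -0.23). Against the first p1 set the members' median was -0.43 and against the second it was -0.51, with median genes of -0.20 and -0.22. The 3 comparisons share the small intestine cells.

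**Figure D3:**
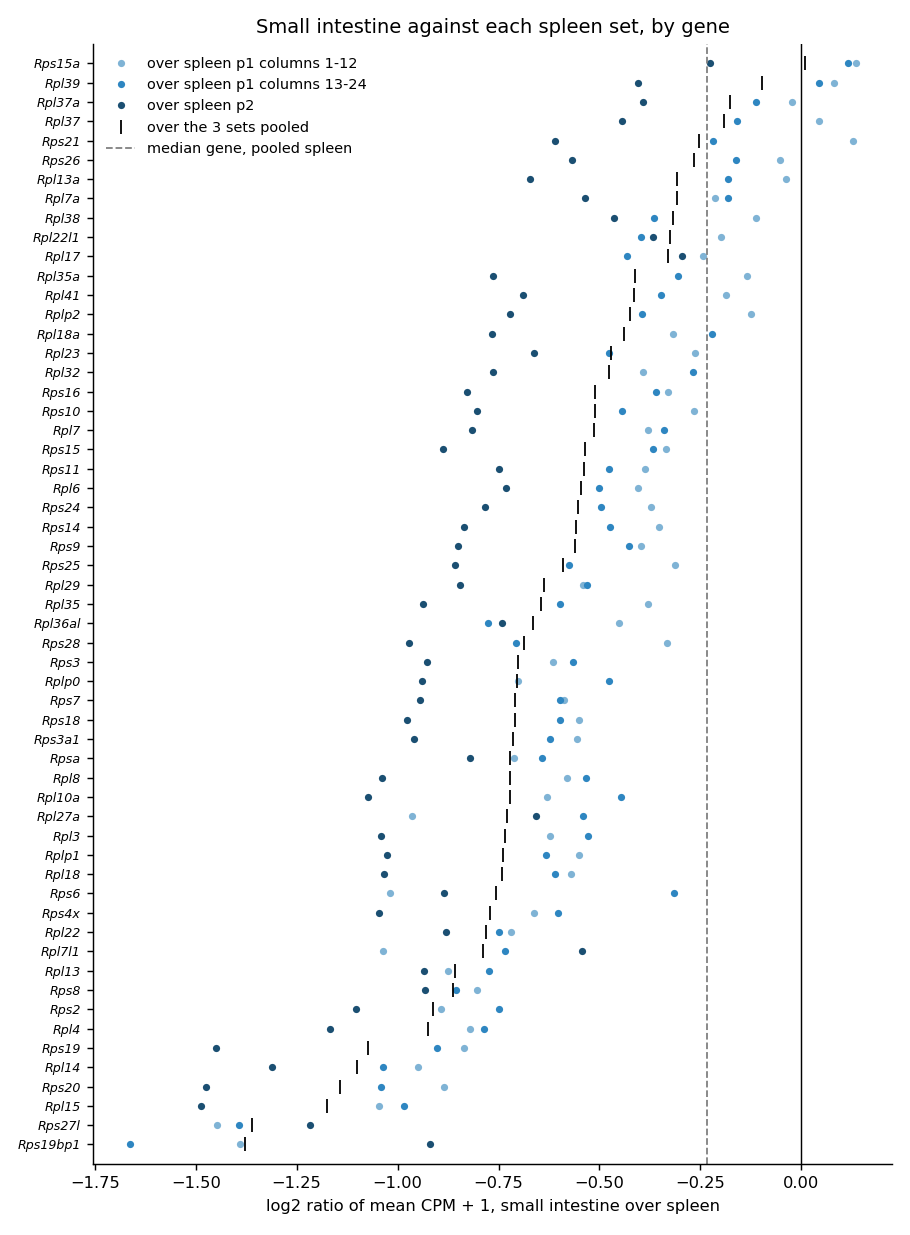
Log2 ratio of mean CPM + 1, with small intestine cells set against each of the 3 spleen sets (points) and against the pooled spleen (black ticks), for ribosomal protein rows with a mean of at least 10 CPM (1 is not shown), ordered by the pooled ratio. The p2 points lie farthest to the left for most rows, the pooled ratios run from -1.38 (Rps19bp1) to 0.01 (Rps15a), and most of them lie below the dashed line at the median gene (-0.23).

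The stalk of the large subunit, which recruits the translation factors, is built of Rplp0, Rplp1 and Rplp2. Rplp0 was between 89.04 and 2339 CPM in small intestine cells, with a median of 919 CPM. Its medians were 1425, 1241 and 1751 CPM in the first p1 set, the second p1 set and p2. Rplp1 had a small intestine median of 319.02 CPM, and medians of 452.4, 473.3 and 601 CPM in those spleen sets. Both stalk genes thus had lower medians in small intestine cells than in every spleen set, with log2 ratios of mean CPM of -0.70 and -0.74, though cells of the tissues overlapped. Rplp2, the partner of Rplp1, differed less. Its medians were 153.8 CPM in small intestine cells and 150.1, 190 and 225.9 CPM in the spleen sets, with a log2 ratio of the means of -0.43. Rpsa, a small subunit protein also known as a laminin receptor, had a median of 33.7 CPM in small intestine cells and of 57.6, 56.5 and 67.8 CPM in spleen sets, a log2 ratio of the means of -0.72.

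Rpl4 and Rps3, at the top in reads, were also lower in the small intestine. Rpl4 was between 197.4 and 3667 CPM in small intestine cells (median 1622 CPM), and between 749 and 7732 CPM, 905 and 9119 CPM, and 886 and 7824 CPM in the 3 spleen sets, with medians of 2798, 2664 and 3415 CPM. The small intestine cells were shifted down as a whole, with an upper quartile of 2071 CPM close to the lower quartiles of the p1 sets (2031 and 1951 CPM). The log2 ratio of the means was -0.92 for Rpl4 and -0.70 for Rps3.

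The 6 lowest log2 ratios belonged to Rps19bp1 (-1.38), Rps27l (-1.36), Rpl15 (-1.18), Rps20 (-1.14), Rpl14 (-1.10) and Rps19 (-1.07). Rps20 and Rps19, small subunit proteins of which the second is the best known gene of Diamond-Blackfan anaemia, were read in nearly all cells. Rps20 had a median of 119.3 CPM in small intestine cells and of 227.1, 237.6 and 330.9 CPM in the spleen sets. Rps19 had a median of 72.6 CPM against 130.7, 134.6 and 196.2 CPM. For Rps20 the upper quartile of the small intestine cells, 176.2 CPM, was near the lower quartiles of the p1 sets, 143.3 and 168.7 CPM. Rpl14, of the large subunit, had medians of 51.7 CPM against 93.5, 111.1 and 131.8 CPM. Rpl15, a large subunit protein, had a read in 14.6% of small intestine and 38.3%, 33.8% and 32.8% of spleen cells. Its median was therefore 0 in each set, and its ratio rests on few cells of up to 1597 CPM. Rps27l, a p53-inducible relative of Rps27, was read in 57.7% of small intestine cells (median 16.6 CPM) and had medians of 82.6, 73.7 and 60.7 CPM in the spleen sets. Rps19bp1 was read in 17 small intestine cells and in 48, 53 and 30 cells of the spleen sets.

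At the other end, Rps15a (0.01), Rpl39 (-0.10), Rpl37a (-0.18), Rpl37 (-0.19), Rps21 (-0.25) and Rps26 (-0.26) had the highest log2 ratios. Rps15a, a small subunit protein, had a median of 329.99 CPM in small intestine cells, which lay among the spleen medians of 273.1, 273.96 and 334.7 CPM. Rpl39, which lies at the exit of the tunnel, had a median of 154.2 CPM in small intestine cells, and spleen medians of 153.9, 162.6 and 177.01 CPM. Rps15a, Rpl39, Rpl37 and Rps21 were the 4 members whose small intestine mean was not below all 3 spleen sets, and each was below p2. Rpl37 and Rpl37a are small zinc-binding proteins of the large subunit. Rps26, which lines the mRNA exit channel, had means of 172.7 CPM in small intestine cells and of 179.02, 193.15 and 256.3 CPM in the spleen sets. Across the 58 members the log2 ratio and the transcript length had a Spearman correlation of -0.30, and the 29 shorter and 29 longer members had median log2 ratios of -0.56 and -0.70. Across the 7855 other genes with a length, the correlation was 0.07.

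Of the 28 rows with a read and a mean under 10 CPM, 20 had a small intestine mean below all 3 spleen sets and 1, Rpl23a, above all 3, against 16.1% and 31.7% of the 8453 genes of that kind. Rps27 was read in 24 small intestine and 77 spleen cells, with means of 7.47 and 5.80 CPM. Its transcript, with 1.35% of its 50-base words unique, nearly matches other annotated sequence, whereas Rps27l had 77.6% unique words. Rpl36a and its relative Rpl36al had log2 ratios of -0.74 and -0.66, from means of 2.95 and 75.1 CPM in the spleen. Rpl22, known for its part in the development of alpha-beta T cells, had means of 228.01 CPM in spleen and 132.4 CPM in small intestine cells (log2 ratio -0.78), and its relative Rpl22l1 had 116.8 and 93.1 CPM (-0.32). Rpl7 had a log2 ratio of -0.51 and Rpl7l1, a nucleolar relative, of -0.79, the latter read in 40.9% of small intestine cells and in 57.9%, 53.8% and 45.9% of cells in the spleen sets. Rps4x and Rpl3 had log2 ratios of -0.77 and -0.73, while Rpl10, at means of 5.35 and 8.46 CPM, had -0.58. Rpl39l, a relative used in the testis, was read in 1 small intestine and 12 spleen cells, where it held 640 reads. Rps4l was read in 17 spleen cells, with 607 reads, and in 0 small intestine cells, a count that is compatible with up to 2.19% of cells holding a read. Those reads on Rpl39l and Rps4l came from few cells, and the Rps4l row had no transcript in the annotation used here.

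The 3 spleen sets differed from each other in level. In 50 of the 58 members p2 had the highest mean of the 4 sets, against 30.3% of all genes. The log2 ratio of p2 over the second p1 set had a median of 0.35 over the members, with a median gene of 0.02, and was positive in 52 of 58. The step was shared but small for each gene, since 1 member was at least 1.5-fold higher in p2 (Rpl10a) and 1 at least 1.5-fold lower (Rps19bp1), against 14% and 13.3% of all genes. Between the p1 sets the members' median was -0.04 for the first over the second, and 1 member was at least 1.5-fold higher (Rps6) and 0 lower, against 9.78% and 11% of all genes. Rps6, the small subunit protein that S6 kinases phosphorylate, had means of 29.6 and 17.8 CPM there.

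The like genes compared and Rps19bp1 were lower in p2 than in the second p1 set, by little in some. Of the 6 members lower in p2 than in the second p1 set, 5 were the like genes compared (Rpl7l1, Rps27l, Rpl22l1 and Rpl36al) and Rps19bp1, with log2 ratios from -0.74 to -0.03, and the sixth was Rpl17 (-0.14). The other 52 known ribosomal proteins were higher in p2 than in that set. Against the first p1 set the 5 did not go one way. Rpl22l1 had means of 106.98 CPM in the first p1 set and 120.4 CPM in p2, and Rpl36al 64.7 and 79.2 CPM, whereas Rpl7l1, Rps27l and Rps19bp1 had lower means in p2. The grouping of these 5 was made after their values were seen. In the small intestine the same 5 were lower than all 3 spleen sets, with a median log2 ratio of -0.79 against -0.64 for the 53 known ribosomal proteins. Cells that had much of one ribosomal protein had much of the others. Each member's CPM was correlated with the summed CPM of the other members within each set. The median over the 58 members was 0.53, 0.59, 0.65 and 0.45 in the first and the second p1 set, p2 and the small intestine. Over the 4 sets Rpl32 (0.75), Rps18 (0.74) and Rps9 (0.74) had the highest median correlations, and Rpl7l1 (-0.06), Rps19bp1 (0.00) and Rps27l (0.02) had the lowest. Within the group of like genes and Rps19bp1 the median correlations ran from -0.06 to 0.34. These are descriptions over the kept cells of a set, and among known ribosomal proteins the lowest were Rpl15 (0.06) and Rps6 (0.08), which had no read in many cells.

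**Figure D4:**
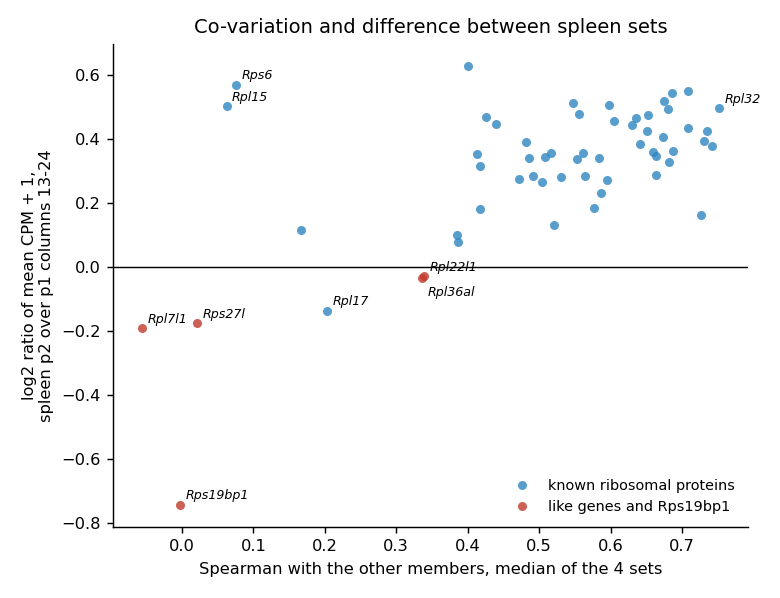
Log2 ratio of mean CPM + 1 in spleen p2 over p1 columns 13 to 24 against the Spearman correlation with the summed CPM of the other members (median of the 4 sets), with 1 point for each of the 58 rows with a mean of at least 10 CPM. The 5 red points, like genes and Rps19bp1, lie below 0 on the vertical axis, while 52 of the 53 blue points, known ribosomal proteins, lie above it.

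Since the members moved together, the first transcribed bases of those named above were read from RefSeq promoters (GRCm38.p6), which matched 66 of the 87 members. The TOP sequence was searched as a C followed by at least 4 bases that are each C or T, on the transcribed strand and starting within 3 bases of the annotated start. It was found for 26 of 66 members (39.4%) and for 13.5% of all 27025 genes with a promoter. Members with the lowest ratios (Rpl15, Rpl14) and the highest (Rps15a, Rps21), a stalk gene and the Rps27 pair are shown as 30 bases each, with 10 before the start and 20 from it. They were chosen among starts with a match, and the capitals mark the match, which a longer pyrimidine run can contain.
Rpl15, chr14:18270967-18270996, minus strand: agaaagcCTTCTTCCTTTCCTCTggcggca
Rpl14, chr9:120571507-120571536, plus strand: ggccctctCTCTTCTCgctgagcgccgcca
Rps15a, chr7:118116128-118116157, minus strand: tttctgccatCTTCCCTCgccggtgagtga
Rps21, chr2:180257369-180257398, plus strand: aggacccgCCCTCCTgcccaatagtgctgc
Rplp2, chr7:141447641-141447670, plus strand: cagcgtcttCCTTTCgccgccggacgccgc
Rps27, chr3:90213629-90213658, minus strand: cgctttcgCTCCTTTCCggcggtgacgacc
Rps27l, chr9:66946076-66946105, plus strand: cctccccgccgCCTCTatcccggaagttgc
A match was present at both ends of the range of ratios, in Rpl15 and in Rps15a, and so was its absence, with none in Rps19bp1 and Rps19 at the low end or in Rpl39, Rpl37a, Rpl37 and Rps26 at the high end. Rpl4, Rps3, Rplp0 and Rpsa had none either, nor had a further annotated start of Rps21 and of Rps27l. Of the members compared, the 19 with a match had a median log2 ratio of -0.55 and the 26 without had -0.70. The 966 other genes with a match had a median of -0.20 and the 5470 without had -0.24. Annotated starts can lie away from the true first base, so a missing match says only that these letters are not at that place.

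Within each spleen set, cells with more Tcf7 had a larger ribosomal protein share. Tcf7 is a transcription factor of naive and memory-like T cells. Its mean was 207.8 CPM in the first p1 set, 216.3 CPM in the second, 760 CPM in p2 and 2.27 CPM in the small intestine, with a read in 32.3%, 47.6%, 72.95% and 2.92% of cells. The Spearman correlation of the share with Tcf7 over the kept cells was 0.33, 0.56 and 0.60 in these spleen sets. In the small intestine it was 0.10, and 4 cells there had a Tcf7 read. The list of 9 naive or memory genes, Tcf7 among them, had weaker median correlations with the share. They were 0.15, 0.23 and 0.32 in the spleen sets and 0.02 in the small intestine. The correlations are descriptions over cells of the same libraries, and the CPM of Tcf7 was taken over the reads outside the ribosomal protein rows.

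Cells with a Tcf7 read had median shares of 2.16%, 2.27% and 2.88% in the first p1 set, the second p1 set and p2, and cells without had 1.80%, 1.55% and 1.81%. In the absence of a Tcf7 read, p2 and the first p1 set were thus at about the same level, and the small intestine, at 1.36%, was still the lowest. Among cells without a Tcf7 read, an alternative chosen after the data were seen, 13 of 56 members (23.2%) were at least 1.5-fold lower in the small intestine, under the 30.1% of all genes in that setting. Below all 3 spleen sets were 46 members, against 39.8% of all genes. Their median log2 ratio was -0.35, with a median gene of -0.20. A cell without a read can still express the gene, and some of the cells with a read held only a trace of it.

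**Figure D5:**
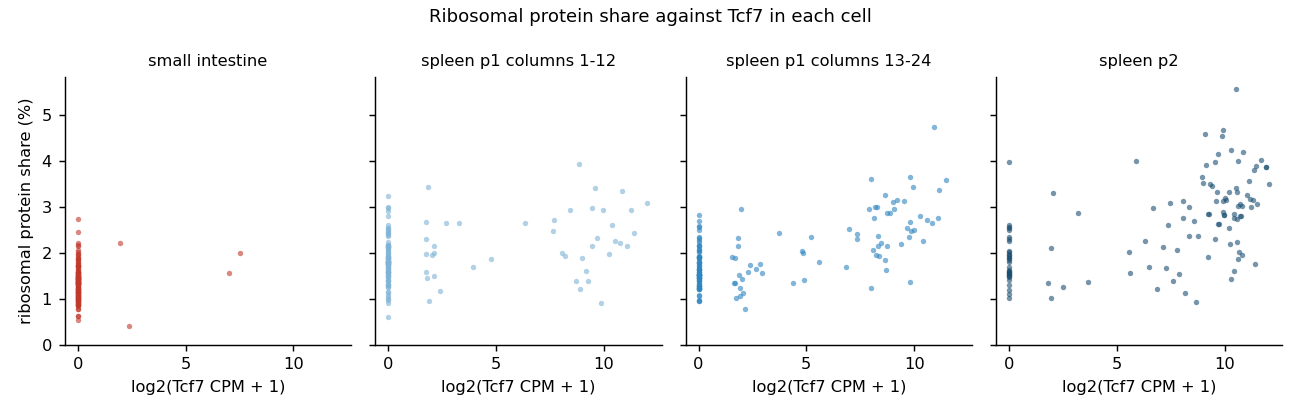
Share of gene reads on ribosomal protein rows against log2(CPM + 1) of Tcf7 in each kept cell, with 1 panel for each set. In the spleen panels cells at the right have larger shares (Spearman 0.33, 0.56 and 0.60), and in the small intestine panel all but 4 cells lie at 0 on the horizontal axis.

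The relation to Tcf7 ran through most members. Over the 58 members, the CPM correlated positively with Tcf7 in 45, 56 and 53 members in the first p1 set, the second p1 set and p2, where 40.2%, 46.1% and 33.8% of 8325 other genes did. The median correlations were 0.17, 0.38 and 0.41. In the small intestine 43 members were positive, with a median of 0.06 and 56.4% of other genes positive. Gzmb, a cytotoxic granule protease, went the other way. Its mean was between 1187 and 1903 CPM in the spleen sets and 19277 CPM in small intestine cells. The Spearman correlation of the share with Gzmb was -0.25, -0.33 and -0.30 in the spleen sets and -0.12 in the small intestine. Positive with Gzmb were 7, 3 and 8 of the 58 members in the spleen sets, against 58.8% to 67.6% of other genes.

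The number of genes in a cell was weakly related to the share. With each cell thinned to 200000 reads and the ribosomal protein rows not counted, the Spearman correlation was 0.06, -0.19 and -0.14 in the spleen sets and 0.18 in the small intestine. With cells called S or G2M kept, these became -0.11, -0.21, -0.37 and 0.16, so that the first changed its sign and p2 gave the strongest. When p2 spleen cells were split into 3 equal parts by genes, the part with the fewest had a median share of 2.80% and that with the most had 2.18%. In the small intestine these were 1.22% and 1.40%. The share and the total reads had correlations of -0.19, -0.31 and -0.11 in the spleen sets and 0.02 in the small intestine. Given both genes per cell and total reads, a partial correlation chosen after the data were seen, Tcf7 kept values of 0.32, 0.49, 0.56 and 0.08, and Gzmb -0.26, -0.29, -0.31 and -0.15.

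Among the genes most like the ribosomal protein share were elongation factors. By the median over the 4 sets of the Spearman correlation with the share, the highest of 8326 genes included Eef1a1 (0.62), Eef1b2 (0.56), Rn45s (0.52), Gm13826 (0.51), Eef2 (0.47), Gnb2l1 (0.46) and Tcf7 (0.44). Eef1a1, Eef1b2 and Eef2 are elongation factors, Rn45s is the ribosomal RNA precursor, and Gnb2l1 (Rack1) is itself a protein of the small subunit whose name escapes the rule. The 8 lowest were Ctla4 (-0.46), Nkg7 (-0.45), S100a6 (-0.45), S100a11 (-0.45), Cxcr6 (-0.44), S100a4 (-0.44), Baz1a (-0.42) and Lgals1 (-0.42). In the small intestine alone these 8 correlations were between -0.24 and 0.17, while Eef1a1 had 0.56 there.

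Translation factors as a list, 21 of 22 with at least 10 CPM, had a median log2 ratio of -0.73 in the small intestine over the spleen. Of them, 20 were below all 3 spleen sets and 11 at least 1.5-fold lower. Of all 8384 genes with a mean of at least 10 CPM, 45.5% were below all 3 spleen sets and 23.5% above all 3. At least 1.5-fold lower were 31.3% of those genes, and 12.8% were at least 1.5-fold higher. The median log2 ratio of those genes was -0.23. The counts for the lists were not recomputed under TMM or median-of-ratios scaling, under which fewer ribosomal protein rows were at least 1.5-fold lower. Eef1b2 had means of 551.1 CPM in small intestine and 1135 CPM in spleen cells, a log2 ratio of -1.04, and Eef2 had 1926 and 2292 CPM (-0.25). Genes that build ribosomes were lower still. Of 34 compared, 32 were below all 3 spleen sets, 31 were at least 1.5-fold lower and 2 were above all 3, with a median log2 ratio of -1.51. Ncl, the nucleolar protein nucleolin, had means of 371.1 and 800.4 CPM in the same order (-1.11), and Npm1, a nucleolar chaperone of ribosome assembly, 236.4 and 459.3 CPM (-0.96). Reads on the Rn45s row had means of 34491 and 34287 CPM (0.01). Whether they came from the precursor or from mature ribosomal RNA was not tested. Mitochondrial ribosomal proteins, 74 of 77 compared, had a median of -0.66, with 60 below all 3 sets and 41 at least 1.5-fold lower. Their median correlation with the cytosolic ribosomal protein share was however 0.03, 0.01 and 0.00 in the spleen sets and 0.09 in the small intestine, where translation factors had 0.25, 0.27, 0.25 and 0.22. Of 15 growth control genes of the mTOR and Myc pathways, 11 were below all 3 spleen sets and 2 above all 3. At least 1.5-fold lower were 9 and at least 1.5-fold higher was 1, with a median log2 ratio of -0.64. The list holds genes that promote growth and genes that restrain it, so these counts have no direction for growth. Myc itself had means of 49.4 and 172.5 CPM (-1.78). Gnb2l1 (-0.67) was also below all 3 sets, and Fau, a small subunit protein at 6.86 and 10.3 CPM, was under the limit.

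Markers fixed for other cell types had weak correlations with the share. For each of these lists most cells of every set had no read, so most were tied, which limits the correlation. A marker read, such as one of the CD8 genes, does not by itself show that a cell was of another type. Their summed CPM, for CD8 T cells, B cells, myeloid and epithelial cells, had Spearman values between -0.14 and 0.16 in the 4 sets. Without any cell that held a read of these markers, an alternative chosen after the data were seen, 62 small intestine and 78, 99 and 79 spleen cells were left. The median shares were then 1.35% in the small intestine and 1.83%, 1.89% and 2.60% in the spleen sets, with 52 of 58 members below all 3 sets and 31 at least 1.5-fold lower, where 43.8% and 33.7% of all genes were.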

How the data were processed

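Single cells were sequenced with SMART-seq2, a full-length protocol without molecular identifiers. The authors deposited read counts per gene, with 1 column for each of 764 cells, 190 of the small intestine and 574 of the spleen. The submitters' processing notes name STAR and mm10, while the methods name a 2-pass STAR alignment to Mm8. The methods also describe RPKM values from uniquely aligned reads, corrected for mappability (MULTo), which are not the values used here. For the deposited counts, the counting tool, the annotation and the handling of reads with several matches are not given in the sources used here. No column was left unmapped.

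CPM was computed here from the counts over gene rows without the reporter row, which took 0.00979% of reads. Cells more than 3 median absolute deviations below their tissue's median of log reads (161898 in the spleen, 170584 in the small intestine) or log genes (1793 and 1765) were removed, then cells that cyclone (scran 1.30.0) called S or G2M, with 635 of 667 marker genes matched. This kept 137 small intestine cells and 400 spleen cells, 133 and 145 of p1 columns 1 to 12 and 13 to 24 and 122 of p2. Genes with a mean of at least 10 CPM over kept cells were compared by log2 ratios of mean CPM with a pseudocount of 1, which understates the ratio of low genes, and called at 1.5-fold. With 1 sample for each tissue no test was run. Thinning to 200000 reads left out 23 spleen and 5 small intestine cells. Intervals are exact 95% Poisson intervals. Transcript lengths and 50-base words came from GENCODE M21. Calculations used Python 3.11.15, numpy 2.4.6, pandas 2.3.3, scipy 1.17.1 and edgeR 4.0.16 (TMM). Only the log2 ratios of mean CPM and the rank correlation function were tested on simulated data.

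The members, the gene lists and the alternatives were chosen with earlier results of these data known. Genes were named by rule, as the stalk genes and Rpsa, the 3 highest mean CPM, the 6 lowest and 6 highest log2 ratios, the pairs of close relatives, the 3 lowest and 3 highest correlations with the other members, and the 8 other genes most and least correlated with the share. Further names (Rpl17, Rpl10a, Rps6, Rpl23a, Rpl28 and Rpl30, and single genes of the lists) were chosen after their values were seen. The counts of members below or above all 3 spleen sets, or past 1.5-fold against pooled spleen, were recomputed with other scalings, filters, pseudocounts and sets. Single genes that these rules or lists also cover are not reported here by name. No doublet caller was run, since cells were sorted singly into wells. The lists of naive or memory genes (9) and effector genes (11) had median log2 ratios of -4.25 and 1.21.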

Additional observations from a re-analysis of the deposited data

Results flagged for a closer look

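Reads also fell on rows that the name rule leaves out. The 7 rows named as pseudogenes of ribosomal proteins held 37982 reads over the kept cells, 1.07% as many as the ribosomal protein rows, and were used in no comparison. Most lay on Rpl14-ps1, with 5615 reads in the small intestine and 26898 in the spleen, and means of 128.8 and 204.3 CPM (log2 ratio -0.66). Its parent Rpl14 had means of 59.3 and 128.3 CPM. Rps15a-ps4 was read in nearly every cell (98.5% in the small intestine, 98.3% in the spleen), with means of 20.2 and 20.9 CPM (-0.05), beside 0.01 for Rps15a. Whether these reads come from the pseudogenes or from their parents was not tested.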

How the results depend on the processing

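The order of the sets, with the small intestine lowest and p2 spleen highest in median share, held in all 8 alternatives run on it, of which 2 were chosen after the data were seen. The values moved with what was counted. With the 5 highest members left out, the medians were 0.947%, 0.928% and 1.27% in the first p1 set, the second p1 set and p2, 0.989% over the 3 spleen sets and 0.708% in the small intestine. Without the 50 highest other genes in the denominator they were 2.26%, 2.19%, 3.11%, 2.36% and 1.80%. With cells called S or G2M kept, the first p1 set, p2 and the 3 spleen sets came to 1.78%, 2.05% and 1.82%, and with no cell filter to 1.76%, 2.04% and 1.82%. In both cases the correlation with genes per cell in p2 was -0.37. Pooled reads gave 2.11% for the spleen. Without cells with a Tcf7 read the medians of the second p1 set, p2 and the 3 sets were 1.55%, 1.81% and 1.73%. The first p1 set was then at 1.803% and p2 at 1.809%, so p2 was highest there by a very small margin.

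The members above all 3 spleen sets numbered 1 under TMM, under median-of-ratios and with no filter on low genes, 2 without p2, and 4 without cells with a Tcf7 read. Those at least 1.5-fold lower numbered 11, 10 and 13 under TMM, under median-of-ratios and without cells with a Tcf7 read, or 18.97%, 17.2% and 23.2% of members, under the 22.9%, 22.2% and 30.1% of all genes there. The median log2 ratio was -0.46 under TMM, -0.43 under median-of-ratios, -0.53 with a pseudocount of 10, -0.54 without p2 and -0.35 without cells with a Tcf7 read. By construction, scaling lifts the small intestine, with TMM factors of 0.898 there and 1.02 to 1.06 in the spleen sets. For the other changes the cause was not tested. No paired analysis was possible because no animal is named for any cell and the replicate numbers, given in accession order, pair nothing. Of all values under alternatives, 35 moved beyond the limits set for them. The limits are 1 sample for each tissue, no named animal, tissue and plate position that coincide on p2, reads without molecular identifiers, and rows that share sequence with pseudogenes.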
